A study of Homo sapiens with 13 samples.

Results

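Inflammatory cytokines and chemokines were followed in MDA-MB-231 cells through 10 genes, chosen by symbol: IL6, LIF, IL11, IL8 (CXCL8 in current annotation), CXCL1, CXCL2, CXCL3, IL1A, IL1B and CSF2. They are 10 of 24875 gene symbols in the Silvestrol table, and 9 of them have a row among the 13121 symbols of the INK128 table, where IL1B was not analysed here. The genes were listed because results of these data were already known, so their values are given as a description. Where a test over all genes also called some of them, the calls are counted beside those of all genes, and they are not independent of the choice.

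MDA-MB-231 is a human triple-negative breast cancer line of mesenchymal character. Ribosome footprints (RFs), the mRNA fragments that ribosomes shield from nuclease, were sequenced from untreated cells and from cells given vehicle (DMSO) or 25 nM Silvestrol, an inhibitor of the RNA helicase eIF4A, for 1 h or 2 h. The 2 h treatments were done at passage 3 and passage 4, the 2 replicates. All other libraries came from passage 3. mRNA was sequenced at 2 h from DMSO and Silvestrol cells of passage 3, and in a separate experiment RFs and total RNA were sequenced after 2 h with DMSO or 200 nM INK128, an inhibitor of the kinase mTOR. Vehicle and drugs were added in fresh medium, and whether the untreated cells also had a medium change is not given in the sources used here.

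Inflammatory cytokines are secreted proteins that call in or activate immune cells, and several tumor types, triple-negative breast cancer lines among them, make them without immune stimulation. Their genes are typically switched on within an hour by NF-kappaB, which binds kappaB motifs in their promoters. The transcripts are short-lived because AU-rich elements in the 3′ UTR, built from AUUUA pentamers, recruit decay factors such as tristetraprolin (ZFP36). IL-6, LIF and IL-11 signal through the shared receptor chain gp130 (IL6ST), the CXC chemokines attract neutrophils through CXCR1 and CXCR2, IL-1alpha and IL-1beta signal through IL1R1, and CSF2 (GM-CSF) drives growth and activation of myeloid cells.

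The 13 libraries comprise 7 RF and 2 mRNA libraries of the Silvestrol experiment and 4 libraries of the INK128 experiment. Counted reads ranged from 2652423 (RFs with Silvestrol at 2 h, passage 4) to 50315607 (DMSO mRNA), both passage 4 RF libraries were the shallowest, and the depth of the INK128 libraries is unknown because only FPKM values were deposited. The genes listed as high in this line, VIM, CD44, AXL, CAV1 and EGFR, were at 10 RPKM or more in every library of the Silvestrol experiment (5 of 5). Of 5 genes listed as low or absent in this line, ESR1 was at 0 and PGR and CDH1 were near 0, while ERBB2 reached 1.63 to 4.05 RPKM and EPCAM 3.24 to 9.94 RPKM in RFs, with ERBB2 mRNA at 25.8 RPKM with DMSO. Of leukocyte markers, CD3E was at 0 and PTPRC and ITGAM were near 0, while CD68, which is not restricted to leukocytes, reached 25.4 to 41.1 RPKM in RFs. The summed RF level of the 7 leukocyte markers was 25.9 to 43.1 RPKM and that of the 4 fibroblast markers 1.58 to 4.59 RPKM. Label fields of 2 libraries conflict: the passage 3 Silvestrol RF library at 2 h has a field that gives 1 h, and the control mRNA library has a field that calls it untreated. Both are used here as their titles name them.

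The 3′ UTRs of these genes carry the decay elements, and the 30 bases with the most pentamers are shown for each gene from the MANE Select transcript (GENCODE 44 lifted to GRCh37), 5′ to 3′ as DNA, with every ATTTA in capitals.
CSF2: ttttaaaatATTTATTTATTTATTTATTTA
CXCL2: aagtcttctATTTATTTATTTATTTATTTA
CXCL1: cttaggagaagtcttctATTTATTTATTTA
CXCL3: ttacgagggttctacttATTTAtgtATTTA
IL8: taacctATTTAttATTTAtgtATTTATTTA
IL6: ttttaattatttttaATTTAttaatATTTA
IL1A: tATTTAtatatgtATTTAtaaatatATTTA
IL1B: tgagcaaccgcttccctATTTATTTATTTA
IL11: ttccaaagccagatcttATTTATTTATTTA
LIF: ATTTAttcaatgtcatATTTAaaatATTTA
CSF2 and CXCL2 hold 5 overlapping pentamers in this window, and IL6 and CXCL3 hold 2. Over the whole 3′ UTR, the density ran from 2.19 ATTTA per kilobase in LIF to 25.2 in CSF2, with a median over the 10 genes of 8.80, against a median of 1.77 over the 10181 expressed genes with both UTRs annotated. A density of 5 or more per kilobase was found in 8 of the 10 genes (all but IL1A and LIF) and in 9.1% of expressed genes. The longer element TTATTTATT occurred at least once in 8 of the 10 genes, all but IL6 and IL1A, and in 9.78% of expressed genes. The 5′ UTRs were short, with a median of 76.5 bases (35 in CSF2 to 153 in IL11) against 132 over expressed genes. Their GC content ran from 45.7% in CSF2 to 75.8% in IL11 with a median of 56.7%, against 67.6%.

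Matches to kappaB motifs in the promoters are shown because genes of this kind are typically switched on by NF-kappaB. RefSeq promoters (GRCh38.p14, from 250 bases before the gene start to 50 after it) were found for 9 of the 10 genes, all but LIF. A loose kappaB motif, GGG and CC with 5 free bases between them on either strand, matched in 6 of the 9 genes, but also in 58.7% of all 35116 promoters of that length. It had no match in IL1A, IL1B and IL11. A narrower form contained in it, with the last 3 of the free bases set to TTT, was added after the data were examined and matched in 4 of the 9 genes and in 1.91% of all promoters. The matches are shown with the motif in capitals, on the strand of the gene.
IL6, 73 bases before the start: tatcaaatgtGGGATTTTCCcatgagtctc
CXCL1, 79 bases before the start: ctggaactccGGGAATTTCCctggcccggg
CXCL2, 78 bases before the start: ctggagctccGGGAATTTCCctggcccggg
CXCL3, 79 bases before the start: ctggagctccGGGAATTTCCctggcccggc
A match says only that these letters are in the window.

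The 4 chemokine genes lie on chromosome 4 (GRCh37): IL8 at chr4:74606286-74609433, CXCL1 at chr4:74735110-74737025, CXCL3 at chr4:74902306-74904406 and CXCL2 at chr4:74962757-74964912. Coding sequences of CXCL1, CXCL2 and CXCL3 were close to identical, with 93.5% of aligned bases the same between CXCL1 and CXCL2, 90.7% between CXCL1 and CXCL3 and 94.4% between CXCL2 and CXCL3, while IL8 shared 59.5% to 60.9% with them. A footprint is about as long as the 30-base windows compared here, and 20.3% of the windows of CXCL1, 44.4% of those of CXCL2 and 35.3% of those of CXCL3 also occur in another of the 3 genes. The stretch of 30 bases from coding position 16 is the same in all 3, and the stretch from position 287 tells them apart, with the bases that differ in capitals.
Shared, position 16: ctctccgccgcccccagcaatccccggctc
CXCL1, position 287: tcatcgaaaagatGctgaaCaGTgACaAAT
CXCL2, position 287: tcatcgaaaagatGctgaaAaATgGCaAAT
CXCL3, position 287: tcatcgaaaagatActgaaCaAGgGGaGCA
Only uniquely mapped reads were counted by the authors, so the length over which a gene could be counted, taken as reads over RPKM, differed between RF libraries by 1.5 times for CXCL1, 1.90 times for CXCL2 and 1.55 times for CXCL3, against 1.13 to 1.14 times for the other 7 genes. RPKM values take this length into account and read counts do not.

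RFs of all 10 genes were detected in untreated cells, at levels that spread over more than 2 orders of magnitude. IL8, the main neutrophil attractant, was the highest with 66.2 RPKM, followed by IL11 with 28.9 RPKM. IL6 (17.8 RPKM), CSF2 (17.6 RPKM) and LIF (13.2 RPKM) lay close together, IL1A (5.38 RPKM), CXCL1 (4.03 RPKM) and IL1B (1.77 RPKM) were lower, and CXCL2 (0.428 RPKM, 3 reads) and CXCL3 (0.268 RPKM, 2 reads) were near the limit of detection. With 1 untreated library this order has no replicate check. In bulk lysates, fewer cells that make an mRNA and less of it per cell cannot be told apart.

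**Figure D1:**
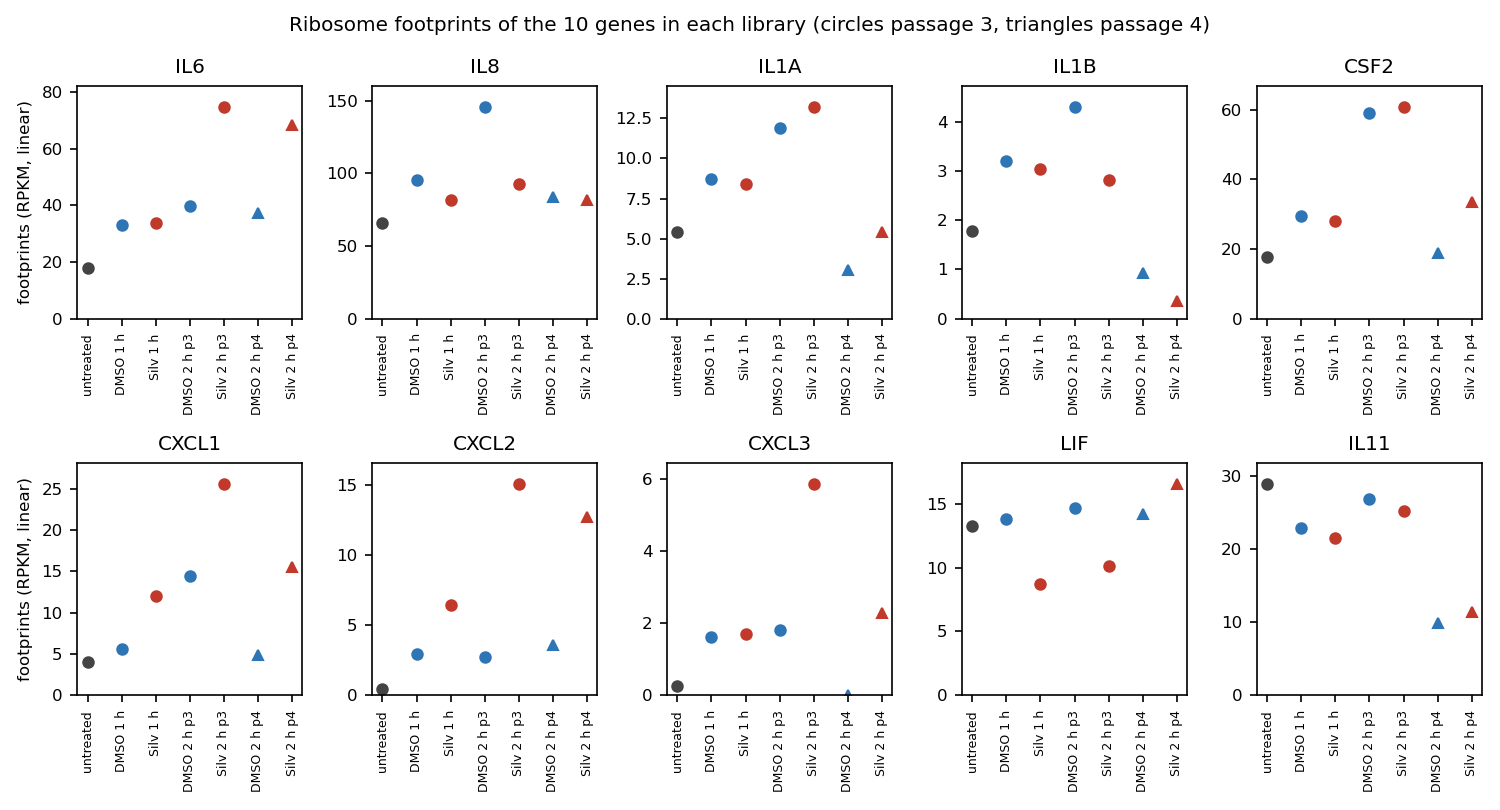
RF level (RPKM, linear axis from 0, a separate scale for each gene) in each of the 7 RF libraries, with untreated in grey, DMSO in blue, Silvestrol in red, circles for passage 3 and triangles for passage 4. IL6, CXCL1 and CXCL2 are higher with Silvestrol than with DMSO in both passages at 2 h. Under both treatments, every gene but LIF and CXCL2 is lower at passage 4 than at passage 3, IL6 only slightly.

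Vehicle-treated cells carried more footprints on most of these genes than untreated cells at passage 3. After 2 h with DMSO, RFs of 7 of the 9 genes that passed the minimum level were over 2-fold higher than in untreated cells (0.619% of 10499 genes), and their median log2 ratio was 1.17, against -0.04 over all genes. CSF2 went from 17.6 RPKM to 29.4 RPKM at 1 h and 59.1 RPKM at 2 h, which is 3.35-fold at 2 h. CXCL1 went from 4.03 to 5.55 and 14.4 RPKM, IL8 from 66.2 to 95.6 and 145.5 RPKM, IL6 from 17.8 to 33.1 and 39.9 RPKM, and IL1A from 5.38 to 8.74 and 11.9 RPKM. The values climbed from untreated to 1 h to 2 h for each of these. CXCL2 and CXCL3 had 0.428 and 0.268 RPKM in untreated cells (3 and 2 reads), under the RF minimum of 1 RPKM, and passed it only through the treated libraries at 2 h, where they are higher. Their log2 ratios of depth-scaled reads at 2 h were 2.43 (95% exact interval 0.62 to 4.85) and 2.60 (0.43 to 5.80), intervals that cover counting error only. IL1B, below the minimum in mRNA, went from 1.77 to 3.19 and 4.29 RPKM. The gp130 cytokines LIF (13.2, 13.8 and 14.7 RPKM) and IL11 (28.9, 22.9 and 26.8 RPKM) changed least. At 1 h, CXCL2 and CXCL3 were past 2-fold (0.591% of genes) and the other 7 genes were not, so nothing is read from that count, and of the 7 genes past 2-fold at 2 h the other 5 were above the minimum in untreated cells too. All of these are 1 library against 1, and DMSO, time and the fresh medium cannot be told apart.

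At passage 4 the picture under DMSO was different. Compared with the untreated cells of passage 3, IL6 (37.4 RPKM) and CXCL2 (3.60 RPKM, 8 reads) were over 2-fold higher (2 of 8 genes, 5.56% of genes) and IL11 (9.84 RPKM) was over 2-fold lower (1.99% of genes). CXCL2 was under the RF minimum in untreated cells and was tested only through the treated libraries, so nothing is read from the count of higher genes. Compared with DMSO at passage 3, 4 of 8 genes were over 2-fold lower (2.29% of genes): IL1A by 1.97 on the log2 scale (11.9 against 3.04 RPKM), CSF2 (59.1 against 18.9 RPKM), CXCL1 (14.4 against 4.88 RPKM) and IL11 (26.8 against 9.84 RPKM). IL1B also differed, with 4.29 RPKM (118 reads) at passage 3 and 0.919 RPKM (6 reads) at passage 4. IL8 was lower within 2-fold, with a log2 ratio of -0.80. IL6 and LIF were close to level, with log2 ratios of -0.09 and -0.05. Under Silvestrol, IL1A, IL11 and CXCL3 were over 2-fold lower at passage 4 (3 of 9 genes, 2.27% of genes), with log2 ratios of -1.29, -1.15 and -1.37, the last resting on 2 reads at passage 4. For IL1A, CSF2 and IL11, then, the passages were further apart than the treatments within either passage.

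The mRNA of most of the genes was higher with Silvestrol at 2 h. Among the 9 genes that passed the minimum level, 7 had over 2-fold more mRNA with Silvestrol than with DMSO (4.71% of 10505 genes) and none over 2-fold less (1.78% of genes), and the median log2 ratio of the 9 was 1.87, against 0.04 over all genes. With 1 mRNA library per treatment this has no replicate check. If the control mRNA library came from untreated cells, as a label field has it, the effect of fresh medium with vehicle would be part of these ratios, and it cannot be told apart from that of Silvestrol.

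Chemokine mRNA had log2 ratios of 1.87 or more. CXCL2 went from 3.14 RPKM with DMSO to 19.9 RPKM with Silvestrol (log2 ratio 2.67, the 9th highest of 10505 genes), CXCL3 from 1.20 to 5.60 RPKM (2.22), CXCL1 from 2.56 to 9.56 RPKM (1.90) and IL8 from 18.8 to 68.8 RPKM (1.87). IL1A, the membrane-associated and nuclear IL-1, went from 0.410 RPKM (76 reads) to 2.14 RPKM (204 reads), a log2 ratio of 2.39 that ranks 11th. IL6 went from 16.7 to 58.1 RPKM (1.80) and CSF2 from 23.2 to 49.0 RPKM (1.08). LIF (22.8 and 33.5 RPKM) and IL11 (26.3 and 21.9 RPKM) stayed within 2-fold, and IL1B had 29 and 11 mRNA reads, too few to pass the minimum.

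**Figure D2:**
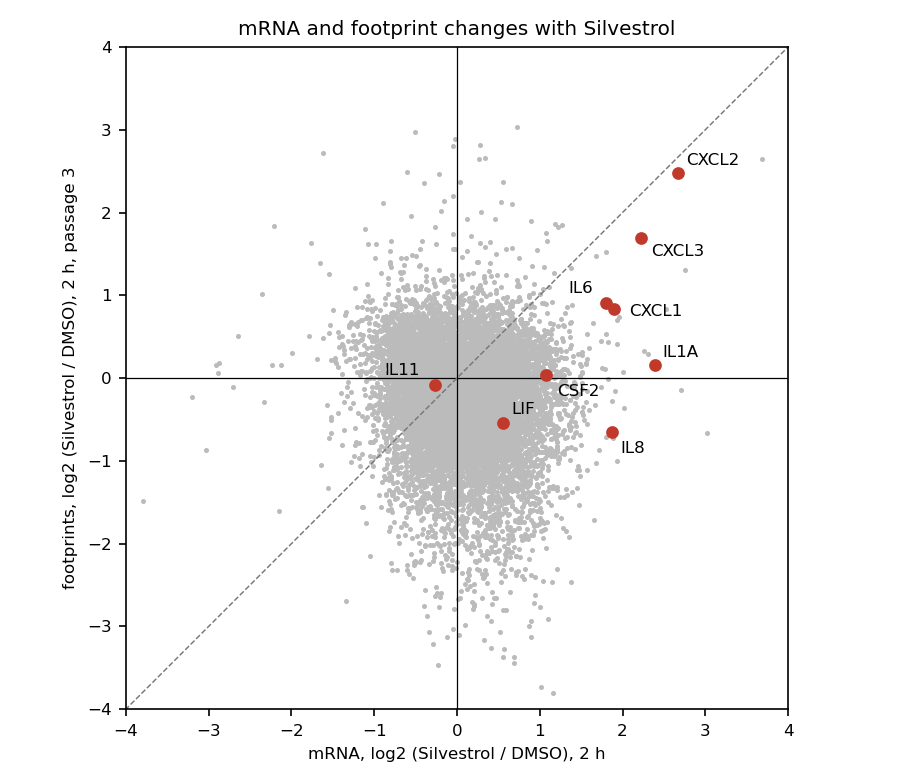
Each point is a gene, with the log2 ratio of mRNA (Silvestrol over DMSO, 2 h) on the horizontal axis and that of RFs at passage 3 on the vertical axis. Grey points are the 10505 genes that passed the minimum level, of which 13 lie outside the axes, red points are the 9 named genes and the dashed line marks equal ratios. CXCL2 lies next to that line at 2.67 and 2.48, while IL8 and IL1A lie far below it at 1.87 and -0.65 and at 2.39 and 0.15.

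Footprints followed the mRNA to very different degrees. The RFs of IL6 rose with Silvestrol in both passages, from 39.9 to 74.6 RPKM at passage 3 and from 37.4 to 68.2 RPKM at passage 4, and the treatments did not overlap. The edgeR log2 change over both passages was 1.01 (SE 0.18, n = 2 per treatment), and IL6 was the single member called higher, of 9 tested, where 2.23% of all genes were called higher and 7.76% lower. With the passage as a block, 4 members were called higher (IL6, CXCL1, CXCL2 and CSF2), where 25.0% of all genes were higher and 28.1% lower. DESeq2 gave no adjusted p for CXCL2 and CXCL3 and called IL6 of the 7 members that had one, with 5.64% of its 9894 genes higher and 10.2% lower. No member was called lower in any of these fits. Without either of the Silvestrol libraries no gene at all was called (0 of 10505 by edgeR), and 2 members without the passage 3 library and 1 without the passage 4 library had an unadjusted p under 0.05.

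The related gp130 cytokines did not share this. LIF was at 14.7 RPKM with DMSO and 10.1 RPKM with Silvestrol at passage 3, but at 14.2 and 16.6 RPKM at passage 4 (log2 change -0.05, SE 0.31). IL11 was at 26.8 and 25.2 RPKM at passage 3 and at 9.84 and 11.4 RPKM at passage 4 (0.15, SE 0.61). LIF thus lay lower at passage 3 and higher at passage 4, and IL11 was close to level at passage 3.

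Among the chemokines, footprints of CXCL1 and CXCL2 were higher with Silvestrol in both passages and those of IL8 were not. CXCL2 was at 2.70 RPKM with DMSO (16 reads) and 15.1 RPKM with Silvestrol (33 reads) at passage 3, and at 3.60 RPKM (8 reads) and 12.7 RPKM (11 reads) at passage 4, a log2 change of 2.02 (SE 0.58) in counts and 2.34 when the counted length was an offset. CXCL1 was at 14.4 and 25.6 RPKM at passage 3 and at 4.88 and 15.5 RPKM at passage 4 (1.05, SE 0.47). CXCL3 was at 1.81 RPKM (12 reads) and 5.88 RPKM (15 reads) at passage 3, and had 0 reads with DMSO and 2 reads with Silvestrol at passage 4, too few for a ratio. In each passage Silvestrol was the higher of the pair for CXCL1 and CXCL2, although DMSO at passage 3 and Silvestrol at passage 4 came close for CXCL1. IL8 was at 145.5 and 92.6 RPKM at passage 3 and at 83.5 and 81.5 RPKM at passage 4 (-0.28, SE 0.33), so its footprints were lower or level while its mRNA was over 3-fold higher.

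The interleukin-1 genes and CSF2 were split by passage. IL1A was at 11.9 and 13.2 RPKM at passage 3 and at 3.04 RPKM (20 reads) and 5.38 RPKM (15 reads) at passage 4 (log2 change 0.46, SE 0.73). CSF2 was at 59.1 and 60.7 RPKM at passage 3 and at 18.9 and 33.5 RPKM at passage 4 (0.40, SE 0.60). Both were level at passage 3 and 1.77-fold higher with Silvestrol at passage 4. IL1B, outside the tested genes, was at 4.29 and 2.82 RPKM at passage 3 and had 6 and 1 reads at passage 4.

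At 1 h, footprints of CXCL1 and CXCL2 were already higher with Silvestrol. CXCL1 was at 5.55 RPKM with DMSO and 12.0 RPKM with Silvestrol, and CXCL2 at 2.92 and 6.41 RPKM, so 2 of 9 genes were over 2-fold higher (0.343% of 10494 genes, 1 library per treatment) and none over 2-fold lower (7.98% of genes). IL6 (33.1 and 33.8 RPKM), IL1A (8.74 and 8.43 RPKM), CSF2 (29.4 and 28.1 RPKM), IL11 (22.9 and 21.5 RPKM) and CXCL3 (1.62 and 1.70 RPKM) were level. IL8 was at 95.6 and 81.5 RPKM and LIF at 13.8 and 8.68 RPKM. From 1 h to 2 h with Silvestrol at passage 3, 5 of the 9 genes (IL6, CSF2, CXCL1, CXCL2 and CXCL3) were over 2-fold higher at 2 h (1.40% of genes), and with DMSO 2 of 9 did (CSF2 and CXCL1, 0.257% of genes).

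Translational efficiency (TE), the RF level over the mRNA level, was most reduced for IL8 and IL1A. The change in TE was expressed as a z-score over the 10505 genes, with -1.5 and 1.5 as thresholds. IL8 went from a TE of 7.75 to 1.35 (z-score -2.26) and IL1A from 29.0 to 6.16 (z-score -1.96), so 2 of 9 members were below -1.5 (6.75% of genes) and none above 1.5 (4.85% of genes). The other 7 lay between -0.79 (LIF) and 0.51 (IL11), with IL6 at -0.59, CSF2 at -0.74, CXCL1 at -0.77, CXCL3 at -0.21 and CXCL2 at 0.13. CXCL2 had a TE of 0.861 with DMSO and 0.755 with Silvestrol from passage 3 RFs and of 1.15 and 0.638 from passage 4 RFs, while its mRNA and its footprints were both higher. Even with Silvestrol, IL1A stood above 95.9% of genes in TE, and with DMSO above 99.6%, a ratio that rests on 76 mRNA reads. With the passage 4 RFs over the same mRNA libraries, IL8 was at -1.69 and IL1A at -1.32, CXCL2 was at -0.57, and CSF2 (0.05) and CXCL1 (0.07) were near the mean of all genes with log2 TE changes of -0.25 and -0.23, so 1 of 8 was below -1.5 (7.23% of genes) and none above 1.5 (4.82% of genes).

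The edgeR interaction of assay and treatment called no member (0 of 9, with 1 at an unadjusted p under 0.05) and 0.0190% of genes lower. With the passage as a block it called IL8, IL1A and IL6 lower (log2 changes of -2.02, -1.80 and -0.64), where 22.5% of all genes were lower and 22.7% higher. The mRNA libraries have no replicate in either fit. The control matters here, because the deposited control TE is the untreated RF level over the control mRNA level in 100% of 13572 entries (within 0.1%), and at passage 3 RFs of all 10 genes except IL11 were lower in untreated cells than after 2 h with DMSO. With untreated RFs as control, IL8 was at -1.02 and IL1A at -0.73, no member was below -1.5 (6.54% of genes), and CXCL2 (2.76) and CXCL3 (2.52), with 3 and 2 untreated reads, were above 1.5 (4.84% of genes). Both are under the RF minimum in untreated cells and were tested only through the treated libraries, so nothing is read from that count. With this control IL6 (0.60), CSF2 (1.03) and CXCL1 (1.09) were above 0, where DMSO RFs had put them below it. LIF stayed below 0 (-0.58).

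**Figure D3:**
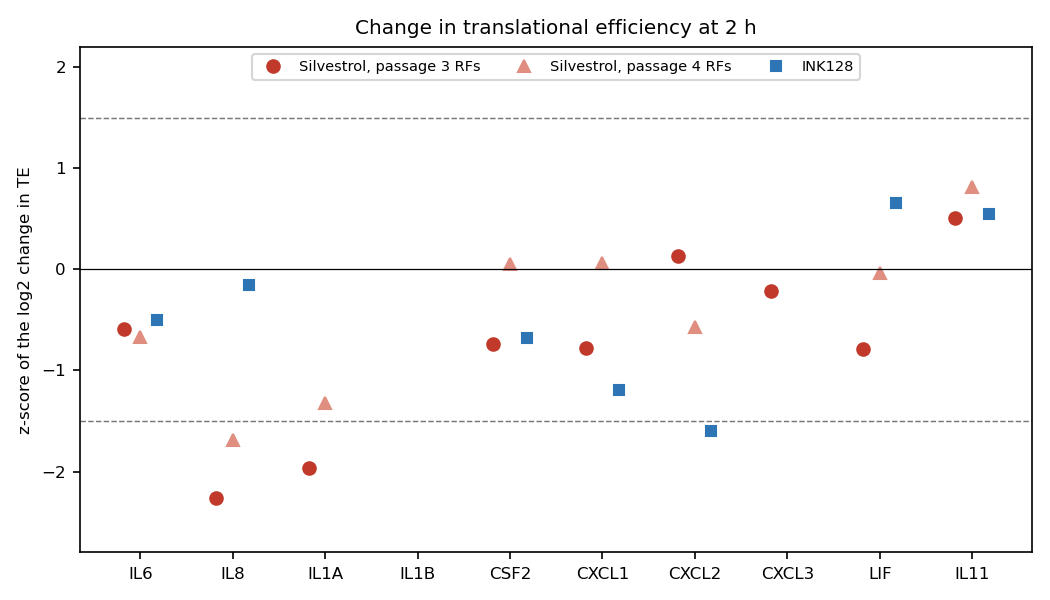
z-score of the log2 change in TE at 2 h for each gene, from passage 3 RFs with Silvestrol (red circles), passage 4 RFs with Silvestrol over the same mRNA libraries (light triangles) and INK128 (blue squares), with dashed lines at -1.5 and 1.5. IL8 is below -1.5 with Silvestrol in both passages and CXCL2, whose total RNA reached the minimum level only with DMSO, is below it with INK128. Genes without a symbol did not pass the minimum level or had 0 reads.

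INK128 left the footprints of these genes within 2-fold. RFs of IL6 went from 44.4 to 72.4 FPKM (log2 ratio 0.70), IL8 from 36.2 to 55.1 FPKM (0.61), CSF2 from 46.3 to 66.4 FPKM (0.52), LIF from 6.32 to 7.69 FPKM (0.28), CXCL1 from 4.98 to 5.67 FPKM (0.19), CXCL2 from 2.99 to 2.85 FPKM (-0.07) and IL11 from 3.59 to 3.19 FPKM (-0.17). None of these 7 genes was past 2-fold, where 1.69% of 7102 genes were higher and 1.96% lower. The median RF ratio over all genes was 0.01 on the log2 scale. IL1A (0.859 and 1.46 FPKM) and CXCL3 (2.19 and 1.49 FPKM) were below the minimum level in total RNA. Doses, drugs and units differ from the Silvestrol experiment, so the values stand side by side without a comparison.

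Total RNA FPKM was lower for most genes with INK128, with a median log2 ratio of -1.17, and each gene is therefore given relative to that median. IL6 (1.01), CSF2 (0.91), CXCL1 (0.84), CXCL2 (0.80) and IL8 (0.74) were above it, LIF was level with it (0.00) and IL11 was below it (-0.40). Relative to the median, 1 of 7 genes (IL6) was past 2-fold higher (5.11% of genes). Without centring, LIF and IL11 were past 2-fold lower (2 of 7 genes, 73.8% of genes). IL11 had 0.459 FPKM with DMSO and 0.155 FPKM with INK128, so that it passed the minimum of 0.3 FPKM on the mean of the libraries only through DMSO. The same holds for CXCL2, with 0.363 and 0.280 FPKM. In TE, CXCL2 had a z-score of -1.60 (1 of 7 genes below -1.5, 5.58% of genes) and none was above 1.5 (1.75% of genes). The TE of CXCL2 was 8.25 with DMSO and 10.2 with INK128, a log2 change of 0.30 where the median over all genes was 1.18, so its z-score is low relative to the other genes and its TE was not lower. Because CXCL2 was tested only through its DMSO library, nothing is read from that count. CXCL1 was at -1.19, and the other 5 genes lay between -0.68 (CSF2) and 0.66 (LIF).

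**Figure D4:**
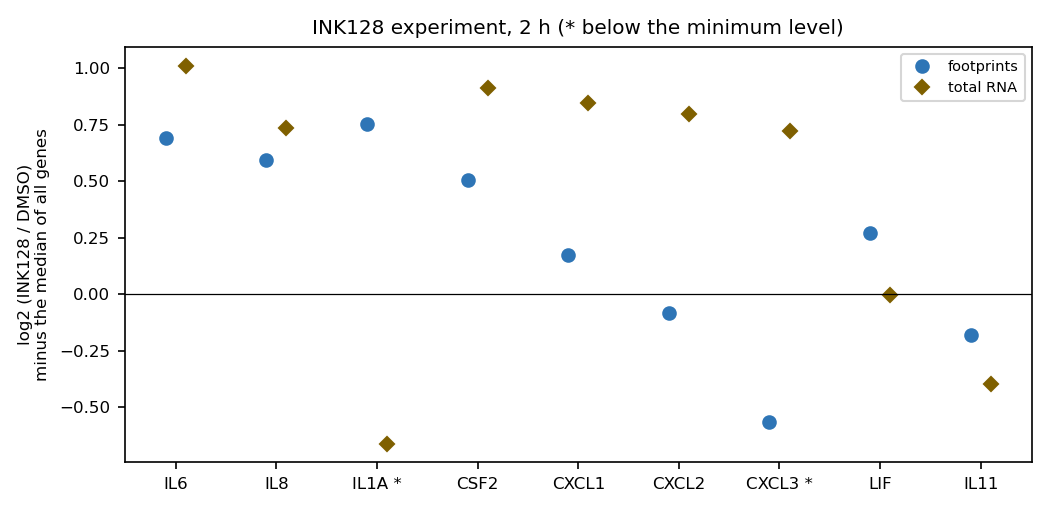
log2 ratio of INK128 over DMSO at 2 h, minus the median of all genes, for RFs (circles) and total RNA (diamonds), 1 library per treatment and assay. IL6, IL8, CSF2 and CXCL1 are above the median in both, and IL1A and CXCL3, marked with an asterisk, did not pass the minimum level.

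The receptors of these cytokines were only in part detected in the cells. Of 11 receptor genes with a row, 4 passed the minimum level and none was called with Silvestrol. With the passage as a block 1 was called lower (28.1% of all genes), IL6ST, the gp130 chain (adjusted p = 0.00466 by edgeR, against 0.484 without it). IL6ST had 11.9 and 25.5 RPKM in RFs with DMSO and 8.04 and 14.8 RPKM with Silvestrol at passages 3 and 4. LIFR had 2.09 and 5.45 RPKM with DMSO, IL1RAP 4.77 and 9.57 RPKM and IL11RA 0.916 and 1.83 RPKM. IL6R reached at most 0.261 RPKM and IL1R1 at most 2.48 RPKM in RFs. The chemokine receptors IL8RA and IL8RB (CXCR1 and CXCR2) and CSF2RA had no read in any library of the Silvestrol experiment. An exact 0 in these counts need not mean that a gene is silent. The signalling gene IKBKG had 714 RF reads with DMSO at passage 3 and 0 reads at passage 4 and in mRNA.

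Without the passage as a block, downstream signalling genes fell or were not called in the edgeR quasi-likelihood test with Benjamini-Hochberg adjustment. Of 18 tested, 4 fell and none rose (7.76% and 2.23% of all genes). Among the 4 were the kinases JAK1 (log2 change -0.86, SE 0.13, adjusted p = 0.0261) and TYK2 (-1.31, SE 0.24, adjusted p = 0.0350), which relay gp130 signals. The transcription factor STAT5B also fell (-1.06, SE 0.21, adjusted p = 0.0409). STAT3, the main target of gp130, was at 137.5 and 119.8 RPKM with DMSO and 112.3 and 101.3 RPKM with Silvestrol (adjusted p = 0.589). The median log2 change of the list was -0.15. With the passage as a block, 3 rose (MYD88, IRAK1 and IRAK2, named after their values were seen) and 6 fell, beside 25.0% and 28.1% of all genes.

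Of 25 other cytokine and chemokine genes, 9 passed the minimum level and none was called, with 3 higher and 1 lower under the block (25.0% and 28.1% of all genes). Their median log2 RF change was -0.01 and that of their mRNA 0.11, with 1 of the 9 past 2-fold higher in mRNA and 1 past 2-fold lower (4.71% and 1.78% of all genes). These were IL24, at 3.32 RPKM with DMSO and 11.6 RPKM with Silvestrol, and IL32, at 38.9 and 18.3 RPKM, both named after their values were seen. TNF, CXCL5, CXCL6, CXCL12 and TSLP had no read in the Silvestrol experiment, with the limit on exact 0 counts given for the receptors.

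Of 16 tested genes of cytokine mRNA decay and processing, 1 rose and 5 fell (2.23% and 7.76% of all genes), and under the block 6 rose and 7 fell (25.0% and 28.1% of all genes), with a median log2 change of -0.19. ZFP36, which binds AU-rich elements and triggers decay, had 18.8 and 8.41 RPKM in RFs with DMSO and 59.3 and 45.7 RPKM with Silvestrol (log2 change 2.04, SE 0.43, adjusted p = 0.0466 by edgeR), and its mRNA went from 8.69 to 18.4 RPKM. HNRNPD (AUF1), another AU-rich element binder, fell from 601.0 and 603.4 RPKM to 159.4 and 124.4 RPKM (-1.61, SE 0.14, adjusted p = 0.0160 by edgeR). The kinase p38alpha (MAPK14), which stabilizes such mRNAs, fell (-1.29, SE 0.13, adjusted p = 0.0169 by edgeR), as did RC3H1 (-1.20, adjusted p = 0.0249) and RC3H2 (-1.02, adjusted p = 0.0435), the roquins that bind stem-loops in cytokine mRNAs, and TIAL1 (-0.72, adjusted p = 0.0387). The part of these changes in the values of the 10 genes was not tested.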

How the data were processed

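Ribosome profiling and RNA sequencing tables of MDA-MB-231 cells were analysed, 1 for each drug. The 10 genes, the lists and most tests were chosen with earlier results of these data known. For Silvestrol, the authors used Bowtie against hg19 and canonical transcripts of UCSC KnownGene, and deposited a count of unique reads per transcript and library. They also deposited RPKM values that leave out positions with non-unique reads, the mean RPKM of the passages and its log2. For INK128, FPKM values and their log2 were deposited, without counts. The deposited TE ratio and its log2 change hold the authors' own comparisons, and the deposited score is that change standardized by the authors. None of these was used as a result, but the control TE was traced to its parts.

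Repeated lines were dropped, and of a symbol with several entries that with the highest mean RF RPKM at 2 h was used. Genes entered if RFs and mRNA of passage 3 were above 0 and the mean RPKM reached 1 in RFs and 0.3 in mRNA, which 10505 genes and 9 of the 10 passed (not IL1B). The same limits on FPKM left 7102 genes and 7 of the 10. The test of RF counts was edgeR 4.0.16 under R 4.3.3 (TMM, glmQLFit, glmQLFTest, 2 libraries per treatment, no block), and TE as the interaction of assay and treatment over 6 libraries. p-values were adjusted over all genes by Benjamini-Hochberg (threshold 0.05), and DESeq2 1.42.0 served as another tool. Comparisons of 1 library with 1 were log2 ratios of RPKM or FPKM without a pseudocount, called past 2-fold. Intervals on read ratios are exact at 95% and cover counting error only. The tests were checked on simulated data.

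Replicates are passage 3 and passage 4, shared by DMSO and Silvestrol in the labels. Deviations of the passages from the group means correlated between treatments with r = 0.709 over 10505 genes, so the passages pair the samples. The main fits leave this pairing out, and their p-values measure the spread between these 2 cultures. The fits with the passage as a block take it in, and their p-values measure the spread left after the passage difference is taken out. Named genes were the 10 members, pathway genes past the RF threshold (at most the 8 with the largest change) and the receptors. Items withheld for evaluation are not reported here. Columns of samples that were set aside numbered 0. Sequences came from GENCODE 44 (GRCh37) and RefSeq (GRCh38.p14), with the MANE Select transcript for all 10 genes. The sequences of the proteins were not used here. Scripts ran under Python 3.11.15 with scipy 1.17.1, pandas 2.3.3 and numpy 2.4.6.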

Additional observations from a re-analysis of the deposited data

Results flagged for a closer look

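IL1A and CSF2 had RF ratios of Silvestrol over DMSO of opposite sign at 1 h and at 2 h. For IL1A the log2 ratio was -0.05 at 1 h and 0.15 and 0.83 at 2 h in passages 3 and 4. For CSF2 it was -0.06 at 1 h and 0.04 and 0.83 at 2 h. With 1 pair of libraries at 1 h the difference between the times was not tested, and at 1 h and at passage 3 the ratios are close to 0. The sign at 1 h turned with the scaling, to 0.07 for IL1A and 0.06 for CSF2 from reads scaled by library size and to 0.13 and 0.12 after centring on the median of all genes, the sign seen at 2 h.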

How the results depend on the processing

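The RF test called 1 member higher (IL6), and the number moved to 4 with the passage as a block, to 2 (IL6 and CXCL2) once counted length entered as an offset and to 4 with both, and ranged from 0 to 1 when 1 library was left out. The log2 change of IL6 was then 0.87 to 1.11, that of CXCL1 0.67 to 1.81 (without DMSO passage 4 and passage 3), that of CXCL2 1.43 to 2.44 (without DMSO passage 3 and passage 4) and that of CXCL3 1.27 to 6.02, the highest set against a DMSO library with 0 reads. Leaving out a library turned the direction of IL8 (range -0.64 to 0.23), IL1A (-0.48 to 1.90), CSF2 (-0.20 to 1.54), LIF (-0.35 to 0.25) and IL11 (-0.67 to 1.16). For IL1A, CSF2 and IL11 these were the DMSO library of passage 4 (-0.12, -0.16 and -0.34) and the Silvestrol library of passage 3, for LIF the latter, and for IL8 the DMSO library of passage 3. The TE interaction called 3 members lower with the block, against 0. The number of members below a TE z-score of -1.5 with Silvestrol moved from 2 to 1 with a pseudocount of 0.5, with passage 4 RFs and with a minimum of 5, the last because IL1A left the tested genes, and to 0 with untreated RFs as control, where 2 were above 1.5 and CXCL3 reversed to 2.52, both under the minimum in untreated cells. With INK128, members with lower total RNA moved from 2 to 0 with a pseudocount of 0.5 and to 0 after centring on the median, which put 1 member higher and turned IL6 (1.01), IL8 (0.74), CSF2 (0.91), CXCL1 (0.84) and CXCL2 (0.80) above 0. Members below -1.5 in TE with INK128 moved from 1 to 0 with a pseudocount of 0.5 and to 2 with the median and MAD. Without a minimum, CXCL2 was at -1.42, CXCL3 and IL1A entered the tested genes at -2.11 and 2.46, and 1 member was thus above 1.5. With a minimum of 5 no member was left to test with INK128, and that alternative gave no value. The cause of these moves was not tested. Of the values and counts that kept their side of the threshold or stayed within 1.5 times (336), 65 were counts, 249 single-gene values kept their sign and 22 changed it. Each of the 22 had an absolute value of at most 0.77 as reported and at most 1.09 in the alternative. The untreated control, the centring and the combination of offset and block were chosen after seeing the data. Depth limits CXCL2, CXCL3 and IL1B most, and all mRNA, 1 h and INK128 values rest on 1 library per treatment.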
